A study of Mus musculus with 8 samples.

Results

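Hyaluronan is a long, unbranched sugar polymer of the dermal matrix. In cultured mouse dermal fibroblasts, 9 genes that make it, break it down or bind it were followed with and without deletion of *Tgfb1*. They were taken by symbol from the table of normalised counts, as *Has1*, *Has2*, *Has3*, *Hyal1*, *Hyal2*, *Cemip*, *Cd44*, *Vcan* and *Tnfaip6*, and all 9 were found among its 15111 genes. RNA of primary dermal fibroblasts was sequenced in 4 libraries from control mice (Tgfb1fl/fl, no Cre recombinase) and 4 from TGFβ1FKO mice (Tgfb1fl/fl:Col1a2-CreERT). Both groups of mice were adult, carried the floxed *Tgfb1* alleles and were fed tamoxifen, and the cells of both were kept for 72 h in serum replacement medium on fibronectin before lysis. The CreERT recombinase is driven by *Col1a2* promoter and enhancer sequence, so that deletion needs both tamoxifen and activity of this promoter in the cell, and other mesenchymal cells that make collagen can undergo it too. The labels number the libraries within each group but do not say whether each came from a separate mouse, so that the p-values below measure the spread between libraries only. Means are given ± SD (n = 4 libraries), normalised counts are listed in the order of replicates 1 to 4, and gene coordinates are those of GRCm38.

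Hyaluronan is extruded through the plasma membrane by the synthases encoded by *Has1*, *Has2* and *Has3*, which join a pair of UDP-sugars made in the cytosol. It is cut with the help of CEMIP, and by the hyaluronidases HYAL2, held at the cell surface, and HYAL1, which acts in lysosomes. At the cell surface it is held by the receptor CD44, and in the matrix it carries the proteoglycan versican (*Vcan*) and is modified by TSG-6 (*Tnfaip6*), which transfers protein heavy chains onto it. In fibroblasts the hyaluronan coat and CD44 are known to take part in the response to TGFβ and in the formation of myofibroblasts. The comparison asks how the transcripts of these genes stand when the *Tgfb1* transcript of the cells themselves is reduced by the deletion.

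The promoter stretches of 3 of the 9 genes are shown, because *Has1* had the largest difference between the groups on the log2 scale, *Cd44* had the smallest p-value, and *Tnfaip6* was the 1 gene whose stretch held both motifs searched. Each is the 250 bases before the RefSeq start of the gene on GRCm38.p6, written 5′ to 3′ on the strand of the gene. *Has1* is at chr17:17855189-17855438 on the minus strand, *Cd44* at chr2:102901666-102901915 on the minus strand and *Tnfaip6* at chr2:52037863-52038112 on the plus strand. Capitals mark CAGAC or its reverse complement GTCTG, the box that SMAD proteins bind, and TGACTCA or its reverse complement TGAGTCA, the site of AP-1 factors; the letters of these 2 motifs do not overlap in the stretches shown.
Has1: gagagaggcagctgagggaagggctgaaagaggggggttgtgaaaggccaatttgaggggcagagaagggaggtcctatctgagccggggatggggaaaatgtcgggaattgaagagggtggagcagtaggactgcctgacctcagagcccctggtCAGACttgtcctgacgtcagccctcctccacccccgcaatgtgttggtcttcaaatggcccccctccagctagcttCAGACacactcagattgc
Cd44: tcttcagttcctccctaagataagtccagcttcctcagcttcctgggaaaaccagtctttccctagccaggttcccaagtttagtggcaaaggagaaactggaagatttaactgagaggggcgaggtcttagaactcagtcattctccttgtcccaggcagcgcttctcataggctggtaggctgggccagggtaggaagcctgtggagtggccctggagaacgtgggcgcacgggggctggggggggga
Tnfaip6: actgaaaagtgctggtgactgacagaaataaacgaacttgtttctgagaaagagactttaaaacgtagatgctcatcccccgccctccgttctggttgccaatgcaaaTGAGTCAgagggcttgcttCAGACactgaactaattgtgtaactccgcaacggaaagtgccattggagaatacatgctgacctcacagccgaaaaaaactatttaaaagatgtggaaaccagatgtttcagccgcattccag

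*Has1* held the SMAD box 2 times, at 94 and 18 bases before the start, *Tnfaip6* held it once at 123 bases, and *Cd44* had no match to these letters. These distances are from the RefSeq start, which differs from the gene ends of GENCODE M21 printed below. Thus 17 bases of the *Has1* window and 104 of the *Tnfaip6* window lie inside the GENCODE gene. The nearer of the 2 *Has1* boxes lies mostly within those 17 bases. RefSeq windows were matched for 7 of the 9 genes (all but *Has2* and *Has3*), and 4 of the 7 held a SMAD box (*Cemip* and *Hyal1* in addition to the pair above). Of 32851 promoter windows of this length, 42.2% held a SMAD box and 4.46% an AP-1 site. A match is a run of letters and not a measured binding site.

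The deletion itself was read first. *Tgfb1* had normalised counts of 1401, 1298, 1483 and 1314 in control and of 326.4, 259.9, 228.4 and 294.7 in TGFβ1FKO libraries, and the groups did not overlap. Its mean in TGFβ1FKO fibroblasts was 20.2% of the control mean, or -2.31 on the log2 scale (SE 0.10, limma adjusted p = 1.53e-07). The libraries held between 16988998 and 23071528 reads on the listed genes, so that 1 read was worth between 0.830 and 1.11 normalised counts. All 7 fibroblast markers examined were found, summing to 1268000 to 1566000 normalised counts in control and 1318000 to 1471000 in TGFβ1FKO libraries, with *Col1a1* between 599000 and 725200 normalised counts in every library. The summed markers of other cells were far lower. The fibroblast sum rested mainly on collagen genes, and *Lum* alone had 2151 to 3125 normalised counts in control and 2178 to 2892 in TGFβ1FKO libraries. These sums do not measure shares of cells. The summed level of 6 Schwann cell markers was 258.8 to 823.9 in control and 72.5 to 122.9 in TGFβ1FKO libraries, that of 7 endothelial markers 529.4 to 803.2 and 510.8 to 534.4, that of 3 macrophage markers 456.9 to 550.1 and 296.4 to 513.7, and that of 3 keratinocyte markers 103.1 to 148.1 and 142.8 to 167.8. The groups were apart in all 6 Schwann cell markers and in the keratinocyte marker *Dsp*, against 3.79% of all genes, and 3 of the Schwann cell markers passed the thresholds given below, against 0.086% of all genes. The pericyte and mural list (5 markers) summed to 1019 to 1536 in control and 1073 to 1314 in TGFβ1FKO libraries, and the adipocyte list (2 markers) to 107.5 to 200.7 and 114.6 to 209.2. *Ptprc*, *Adgre1*, *Krt5*, *Krt14* and *Adipoq* were among the listed markers not found by symbol in the table, from which the authors had left out genes with few reads. In RNA from whole cultures, fewer cells of a type and less RNA per cell cannot be told apart, and the part of these cells in the values below was not tested.

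None of the 9 hyaluronan genes met both conditions for a call, which were adjusted p under 0.05 and a log2 difference of more than 0.6 in either direction. In limma's moderated test on log2(normalised count + 1) over all genes, 0.086% of the 15111 genes passed (13 genes). At an unadjusted p-value under 0.05 stood 3 of the 9 genes, against 7.46% of all genes, namely *Has1* with a lower and *Cd44* and *Vcan* with a higher mean. The groups overlapped in all 9 genes, and were apart in 3.79% of all genes. The 9 log2 fold changes ran from -0.75 to 0.38, with 5 above and 4 below 0 and a median of 0.01, against a median of 0.00 over all genes. The median absolute log2 fold change was 0.14 for the 9 genes and 0.09 for all genes. The adjusted p-values of the 9 genes lay between 0.589 and 0.998 in limma's test.

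**Figure D1:**
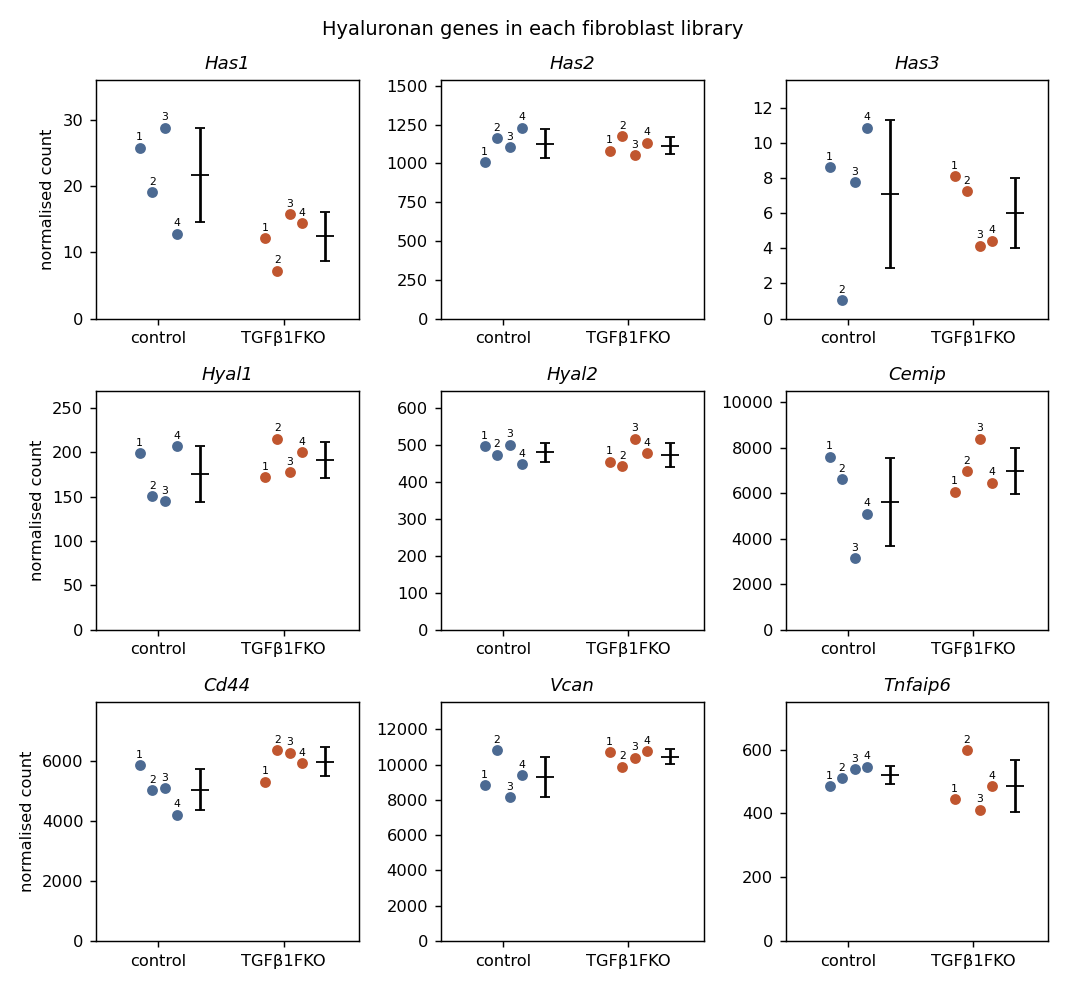
Normalised counts (y axis, starting at 0) of the 9 hyaluronan genes in each library, with control in blue and TGFβ1FKO in orange; small digits are replicate numbers and the bars beside the points give the mean ± SD of 4 libraries. The groups overlap in every panel, and the TGFβ1FKO mean stands at 57.3% of control for *Has1*, 118.4% for *Cd44* and 98.7% for *Has2*.

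*Has2* was by far the most abundant synthase transcript, and its mean in TGFβ1FKO fibroblasts was 98.7% of the control mean. *Has2* (ENSMUSG00000022367, chromosome 15, from 56665627 to 56694539, minus strand) encodes the synthase that embryos cannot do without, and it is the form usually most abundant in dermal fibroblasts. Its normalised counts were 1008, 1163, 1106 and 1232 in control libraries. In TGFβ1FKO replicates 1 to 4 they were 1083, 1179, 1055 and 1135, and all of these lay inside the control range. The means were 1127 ± 94.6 in control and 1113 ± 54.8 in TGFβ1FKO fibroblasts. On the log2 scale the groups differed by -0.02 (SE 0.07, 95% interval from -0.17 to 0.13, limma adjusted p = 0.973). This interval runs from 0.892 to 1.1 times the control level. *Has2os*, an RNA read from the strand opposite to *Has2*, shares 182 bases of exon with it, and the libraries do not keep strand. The level of *Has2os* itself was low, at 28.8 ± 5.32 normalised counts in control and 25.6 ± 2.88 in TGFβ1FKO fibroblasts.

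*Has1* had the largest difference of the 9 genes, on few reads. *Has1* (ENSMUSG00000003665, chromosome 17, from 17843323 to 17855205, minus strand) encodes a synthase that is often induced by cytokines. *Has1* had normalised counts of 25.8, 19.1, 28.8 and 12.8 in control and 12.2, 7.25, 15.8 and 14.4 in TGFβ1FKO libraries. The control libraries rested on 30, 18, 26 and 13 reads and the TGFβ1FKO libraries on 12, 7, 19 and 13. Thus 3 of the 4 controls lay above every TGFβ1FKO library, while control replicate 4 fell among them. The TGFβ1FKO mean was 57.3% of the control mean, and the log2 values differed by -0.75 (SE 0.34, 95% interval from -1.48 to -0.02, limma adjusted p = 0.658). A two-sided exact permutation test on this gene alone gave p = 0.0857, where 4 libraries against 4 allow no p below 0.0286. Without control replicate 4 the difference in *Has1* was -0.96, and without TGFβ1FKO replicate 2 it was -0.53, and neither passed the adjusted threshold.

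*Has3* was close to the limit of detection. *Has3* (ENSMUSG00000031910, chromosome 8, from 106870242 to 106884566, plus strand) encodes the synthase best known from epidermal keratinocytes. There were 8.6, 1.06, 7.76 and 10.9 normalised counts in control and 8.11, 7.25, 4.15 and 4.43 in TGFβ1FKO libraries. Control replicate 2 rested on 1 read, below the floor of 3 reads, and the other libraries on 4 to 11 reads. The mean count was 7.07 ± 4.22 in control and lower, at 5.99 ± 1.99, in TGFβ1FKO fibroblasts, whereas the mean log2 values differed by 0.01, in the opposite direction (95% interval from -1.19 to 1.2, limma adjusted p = 0.998). Without control replicate 2 that difference was -0.56. With all libraries the interval reaches from 0.439 to 2.3 times the control value of normalised count + 1, which is not the same as the count at this level. The direction of a difference in *Has3* cannot be told at this depth. *Has3* also shares 352 bases of exon with *Chtf8* on the opposite strand, from which its reads cannot be separated here.

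Among the 3 synthases, *Has2* made up nearly all of the transcript level. Levels of different genes were compared as normalised counts per kilobase of merged exon (GENCODE M21). *Has2* contributed 97.8 ± 0.75% of the summed level of the 3 synthases in control and 98.6 ± 0.29% in TGFβ1FKO fibroblasts. *Has1* contributed between 0.963% and 2.38% in control and between 0.571% and 1.38% in TGFβ1FKO libraries. With the longest coding transcript in place of merged exons, the share of *Has1* was 3.79% in control and 2.21% in TGFβ1FKO fibroblasts and that of *Has2* 95.8% and 97.4%.

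Of the 3 turnover genes of the set, *Cemip* was the most abundant and the most variable. *Cemip* (ENSMUSG00000052353, chromosome 7, from 83932857 to 84086502, minus strand) encodes the hyaluronan-binding protein through which skin fibroblasts take up and cut the polymer. *Cemip* had normalised counts of 7599, 6616, 3146 and 5101 in control libraries, a coefficient of variation of 34.6%. In TGFβ1FKO replicates 1 to 4 they were 6069, 6976, 8393 and 6463, a coefficient of variation of 14.6%. Control replicates 1 and 2 lay within the TGFβ1FKO range, and replicates 3 and 4 below it. The groups differed by 0.38 on the log2 scale (SE 0.21, 95% interval from -0.08 to 0.83, limma adjusted p = 0.705). This value moved with single control libraries, to 0.12 without replicate 3 (limma adjusted p = 0.96) and to 0.55 without replicate 1 (limma adjusted p = 0.581). The ratio of the *Cemip* to the *Has2* level per kilobase was 0.986 to 2.61 in control and 1.94 to 2.75 in TGFβ1FKO libraries. These ranges overlapped. The ratios depend on the length used for *Cemip*. With the longest coding transcript in place of merged exons, the lowest control level of *Cemip* was 442.4 and the highest of *Has2* 290.7.

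*Hyal2* had a TGFβ1FKO mean at 98.6% of the control mean. HYAL2 transcripts had normalised counts of 497.3, 473.9, 501.2 and 447.4 in control and 455.1, 442.2, 517.3 and 477.5 in TGFβ1FKO libraries. The TGFβ1FKO libraries held both the highest and the lowest value. A log2 difference of -0.02 was found (95% interval from -0.18 to 0.14, limma adjusted p = 0.963). *Hyal1* had 198.7, 150.9, 145.3 and 207.4 normalised counts in control and 172.3, 215.4, 177.7 and 200.5 in TGFβ1FKO libraries. Control replicates 2 and 3 lay below every TGFβ1FKO library, and TGFβ1FKO replicate 2 lay above every control. For *Hyal1* the log2 difference was 0.14 (95% interval from -0.16 to 0.43, limma adjusted p = 0.849). *Hyal1* (ENSMUSG00000010051, chromosome 9, from 107576927 to 107581710) and *Hyal2* (ENSMUSG00000010047, chromosome 9, from 107567945 to 107572779) are neighbours on the plus strand of GRCm38, and *Hyal1* shares 1920 of its 3777 exon bases with *Naa80* on the same strand, so that reads of these 2 genes may have been divided or dropped when they were counted and the level of *Hyal1* is uncertain. Per kilobase, *Hyal2* stood 3.23 ± 0.68 times above *Hyal1* in control and 2.86 ± 0.42 times in TGFβ1FKO fibroblasts.

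*Cd44* (ENSMUSG00000005087, chromosome 2, from 102811141 to 102901665, minus strand) was the hyaluronan gene with the smallest p-value. CD44 is the main receptor through which fibroblasts grip hyaluronan. In the controls *Cd44* had normalised counts of 5871, 5038, 5100 and 4224, and in the TGFβ1FKO libraries of 5326, 6388, 6297 and 5949. Of the TGFβ1FKO libraries 3 lay above every control, and replicate 1 lay below control replicate 1. The means were 5058 ± 673 and 5990 ± 481 normalised counts, with the TGFβ1FKO mean at 118.4% of control. On the log2 scale this was 0.25 (SE 0.09, 95% interval from 0.06 to 0.44, limma adjusted p = 0.589), and the two-sided exact permutation test on this gene alone gave p = 0.0571. Leaving out single libraries gave differences between 0.17 and 0.33, with adjusted p between 0.278 and 0.897 in limma. The upper end of the interval, 1.36-fold, lay under the 0.6 on the log2 scale that a call needs. The counts are per gene and do not separate the standard from the variant forms of CD44.

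*Vcan*, the large proteoglycan that binds hyaluronan through its end domain (ENSMUSG00000021614, chromosome 13, from 89655312 to 89742509, minus strand), had the highest normalised count of the 9 genes. Its counts were 8840, 10842, 8152 and 9420 in control and 10724, 9888, 10399 and 10787 in TGFβ1FKO libraries. All TGFβ1FKO libraries lay above 3 of the 4 controls, and control replicate 2 above all TGFβ1FKO libraries. The groups differed by 0.17 on the log2 scale (SE 0.08, 95% interval from 0.01 to 0.34, limma adjusted p = 0.657), and the two-sided exact permutation test on this gene alone gave p = 0.143. Its spread was 12.3% of the mean in control and 3.93% in TGFβ1FKO libraries. The difference was 0.25 without control replicate 2 (limma adjusted p = 0.353) and 0.11 without control replicate 3 (limma adjusted p = 0.95).

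*Tnfaip6* (ENSMUSG00000053475, chromosome 2, from 52038009 to 52056686, plus strand) encodes TSG-6, a protein that inflammatory signals induce and that crosslinks hyaluronan. Normalised counts of *Tnfaip6* were 485.2, 510.0, 540.0 and 547.1 in control and 446.0, 599.6, 411.9 and 485.3 in TGFβ1FKO libraries. The controls lay close together, while the TGFβ1FKO libraries held the highest and the 2 lowest values. The spread was 5.49% of the mean in control and 16.8% in TGFβ1FKO libraries. A log2 difference of -0.11 was found (95% interval from -0.34 to 0.11, limma adjusted p = 0.832), which was -0.22 without TGFβ1FKO replicate 2 (limma adjusted p = 0.777) and -0.04 without replicate 3 of that group (limma adjusted p = 0.974).

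The order of the 9 genes by mean level per kilobase was the same in both groups. In control fibroblasts it was *Cd44* with 746.5 ± 99.3, *Vcan* with 644.0 ± 79.0 and *Cemip* with 459.1 ± 159 normalised counts per kilobase. *Tnfaip6* followed with 304.4 ± 16.7 and *Has2* with 266.0 ± 22.3. Below them stood *Hyal2* with 145.7 ± 7.54, *Hyal1* with 46.5 ± 8.48, *Has1* with 4.79 ± 1.58 and *Has3* with 1.11 ± 0.66. By merged exons, the ranges of neighbours from *Cd44* down to *Has2* overlapped in control fibroblasts, and those from *Has2* down to *Has3* did not. In TGFβ1FKO fibroblasts the ranges of *Cd44* and *Vcan* and those of *Cemip* and *Tnfaip6* were apart too. The place of *Cemip* depends on the length used, since its merged exons (12232 bases) take in the exons of all its transcripts. With the longest coding transcript (7111 bases) *Cemip* had 789.7 ± 273 in control and stood between *Cd44* and *Vcan*, and the other places were kept. By this length the control ranges of *Cemip* (442.4 to 1069) and *Vcan* (656.0 to 872.4) were both apart from that of *Tnfaip6* (283.7 to 320.0).

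**Figure D2:**
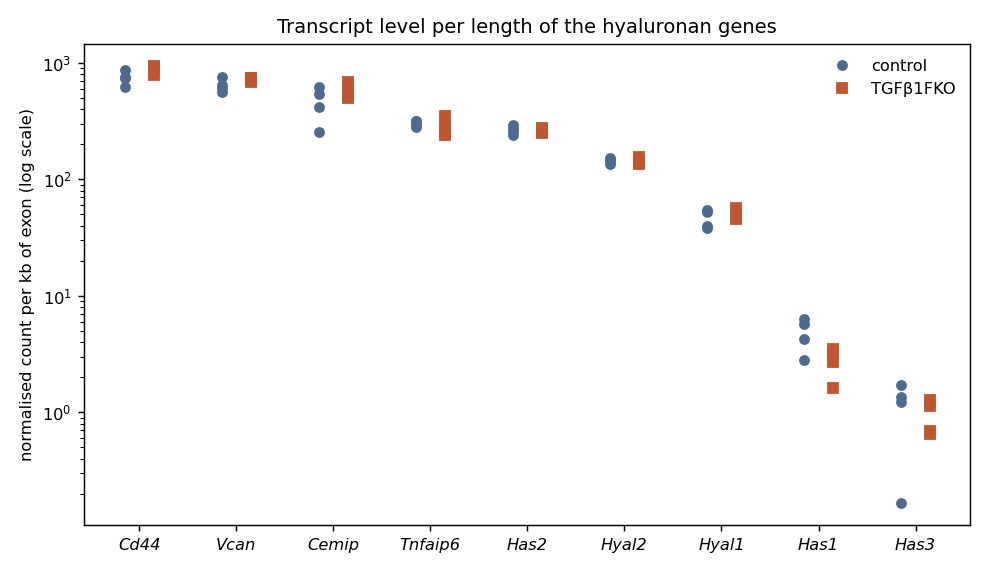
Normalised count per kilobase of merged exon (y axis, log scale) of each hyaluronan gene, with 1 point per library, control as blue circles and TGFβ1FKO as orange squares. By mean, *Cd44*, *Vcan* and *Cemip* are the 3 highest, *Has2* stands near 266, and *Has1* and *Has3* at 4.79 and 1.11 in control. The lowest control value of *Cemip*, 257.2, lies within the control range of *Has2*. With the longest coding transcript in place of merged exons it was 442.4, above the highest control value of *Has2*, 290.7.

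Other genes of hyaluronan metabolism were described from a list of 40 genes sorted by role, of which 26 were in the table. None of the 26 passed the thresholds in limma's test, against 0.086% of all genes. An unadjusted p-value under 0.05 was found for 4 of the 26, against 7.46% of all genes. The groups overlapped in all 26, and were apart in 3.79% of all genes. Of these genes 11 were higher and 15 lower in mean log2 value, with a median log2 fold change of -0.04. The precursor enzymes, which make UDP-glucuronic acid and UDP-N-acetylglucosamine, had 2 genes with a positive and 4 with a negative log2 fold change. *Ugp2*, with the highest level per kilobase among them, stood at 1565 ± 118 in control and at 1478 ± 46.8 normalised counts in TGFβ1FKO fibroblasts. *Gfpt2*, an enzyme at the entry of the hexosamine pathway, had normalised counts of 412.9, 484.5, 459.1 and 297.3 in control and 328.4, 226.8, 369.5 and 323.5 in TGFβ1FKO libraries. Control replicate 4 alone lay within the TGFβ1FKO range. For *Gfpt2* the log2 difference was -0.40 (SE 0.17, limma adjusted p = 0.641). For *Ugdh*, which makes UDP-glucuronic acid, it was -0.15 (limma adjusted p = 0.747).

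The lysosomal enzymes *Hexa* and *Gusb*, which take part in finishing hyaluronan breakdown, and the surface protein *Tmem2*, which is related to CEMIP, had log2 fold changes between -0.13 and 0.03. *Hexa* had the highest level per kilobase among them, at 7601 ± 1090 in control and 6905 ± 461 normalised counts in TGFβ1FKO fibroblasts. Of the receptors besides *Cd44*, *Layn* stood at 1234 ± 25.2 in control and 1207 ± 94.3 normalised counts in TGFβ1FKO fibroblasts, and *Hmmr* at 718.0 ± 54.7 and 716.7 ± 86.1. *Lyve1* and *Stab1* are receptors known from lymphatic and sinusoidal endothelium and from macrophages. *Lyve1* had means of 9.47 ± 4.95 normalised counts in control and 4.78 ± 2.47 in TGFβ1FKO libraries (limma adjusted p = 0.723). It rested on 13, 4, 14 and 7 reads in control and on 7, 2, 4 and 6 in TGFβ1FKO libraries. For *Stab1* the means were 45.7 ± 14.5 and 28.8 ± 18.2 (limma adjusted p = 0.703). The sums of the endothelial and macrophage markers given above were low in the same cultures. In mean log2 value 7 endothelial markers were lower and 0 higher in TGFβ1FKO libraries, and 2 macrophage markers were lower and 1 higher. The part of these cell types in the values of *Lyve1* and *Stab1* was not tested.

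*Ptx3*, a pentraxin that works with TSG-6 in hyaluronan crosslinking, was the most abundant of the other matrix binders, at 3095 ± 450 in control and 3233 ± 201 normalised counts in TGFβ1FKO fibroblasts. Of the heavy chain donors, *Itih5* had 14.6, 13.8, 25.5 and 26.7 normalised counts in control and 37.5, 38.3, 22.4 and 37.7 in TGFβ1FKO libraries. Of the TGFβ1FKO libraries 3 lay above every control, while replicate 3 lay among them. For *Itih5* the log2 difference was 0.75 (SE 0.29, limma adjusted p = 0.628). *Itih2* stood at 10.7 ± 6.13 in control and 12.4 ± 3.80 normalised counts in TGFβ1FKO fibroblasts.

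Proteases that cleave versican included the gene with the highest level per kilobase in the wider list, *Adamts1* (4581 in control). *Adamts1* stood at 24290 ± 2480 in control and 26530 ± 4360 normalised counts in TGFβ1FKO fibroblasts, 0.12 apart on the log2 scale (limma adjusted p = 0.826). *Adamts4* had 1753, 1820, 1628 and 1982 normalised counts in control and 1773, 2392, 2051 and 2088 in TGFβ1FKO libraries. The log2 difference was 0.21 (SE 0.09, limma adjusted p = 0.647), and 3 of the 4 TGFβ1FKO libraries lay above every control. *Adamts15* had 205.6, 333.6, 237.3 and 375.3 in control and 252.4, 144.0, 196.8 and 218.3 in TGFβ1FKO libraries. For *Adamts15* it was -0.49 (SE 0.20, limma adjusted p = 0.641), with 2 controls among the TGFβ1FKO libraries.

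**Figure D3:**
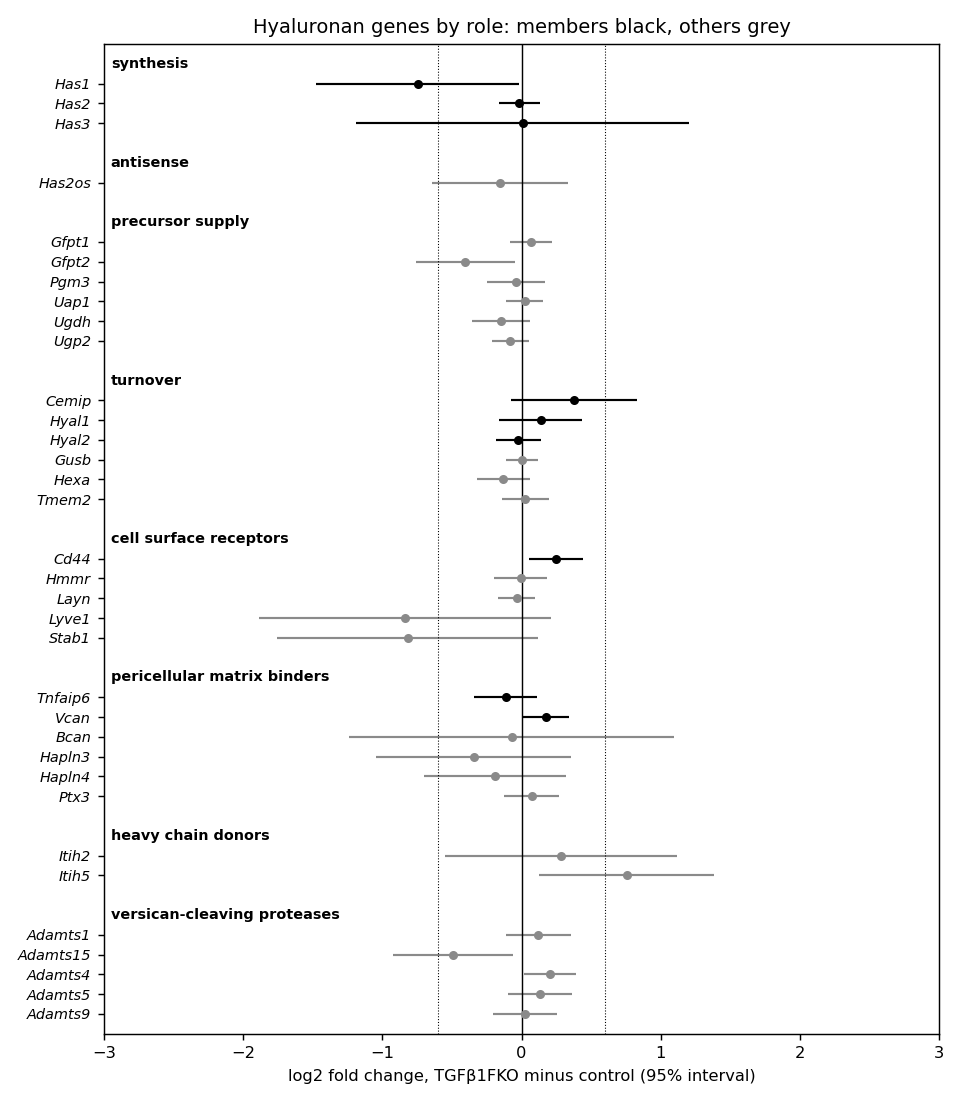
Log2 fold change of TGFβ1FKO minus control (x axis) for hyaluronan genes by role, with the 9 genes of the set in black and others of the wider list in grey; bars are 95% intervals from limma and dotted lines mark -0.6 and 0.6. The intervals of *Has2* and *Hyal2* are narrow around 0, and those of *Has1*, *Has3*, *Lyve1*, *Stab1* and *Bcan* are wide.

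The genes whose pattern over the 8 libraries was most like that of *Has2* were *Colec12*, *Il17ra* and *Cpq*, out of 11560 genes whose normalised counts averaged 50 or more. Pearson's r on log2 values was 0.975 for *Colec12* (Spearman's rho 1.00, and r 0.994 without the 2 libraries farthest from the median of *Has2*), 0.971 for *Il17ra* and 0.969 for *Cpq* (0.934 and 0.920 without the same 2 libraries). *Colec12* stood at 10500 ± 1200 in control and 10140 ± 769 normalised counts in TGFβ1FKO fibroblasts. For *Cemip* the most alike were *St3gal2* with r = 0.962, *Tnfrsf21* with r = 0.952 and *Slc7a4* with r = 0.946, and without the 2 farthest libraries these fell to 0.787, 0.737 and 0.707. Each is the highest of many correlations over 8 libraries, in each of which the genes share depth and scaling, and is given as a description only.

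With each library left out in turn, none of the 9 hyaluronan genes passed the thresholds. *Has1* stayed below 0 and *Cemip*, *Cd44*, *Vcan* and *Hyal1* above 0 in all 8 fits. *Tnfaip6* stayed below 0, between -0.22 and -0.04. *Has2* and *Hyal2* stayed within -0.07 and 0.03, on both sides of 0, and *Has3* ran from -0.56 to 0.28.

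**Figure D4:**
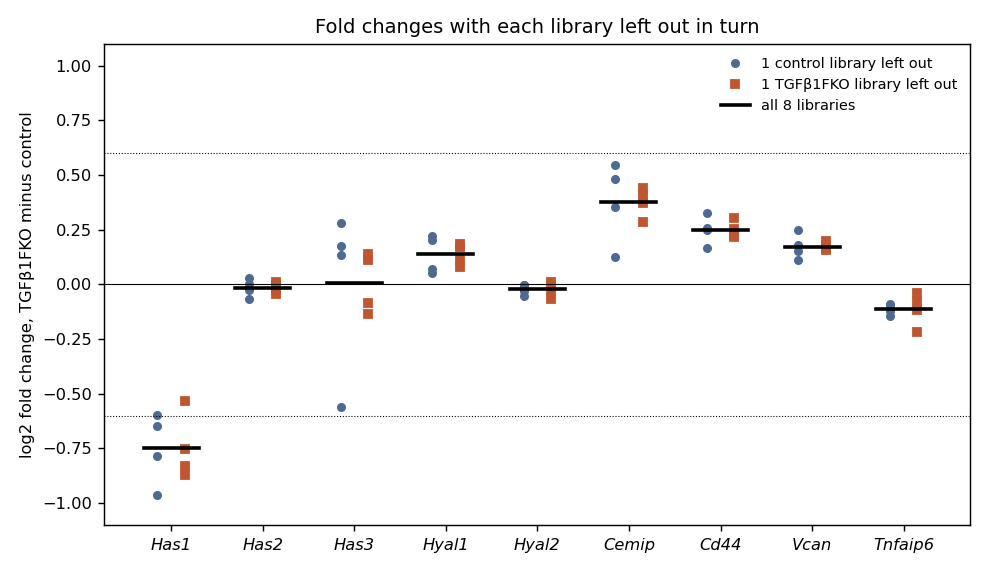
Log2 fold change of TGFβ1FKO minus control (y axis) of each hyaluronan gene with all 8 libraries (black line) and with 1 control (blue circles) or 1 TGFβ1FKO library (orange squares) left out; dotted lines mark -0.6 and 0.6. *Cemip* falls to 0.12 without control replicate 3, and *Has3* to -0.56 without control replicate 2.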

How the data were processed

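RNA of 4 control and 4 TGFβ1FKO fibroblast cultures was sequenced as non-directional, paired-end libraries. The submitters' processing notes name HISAT2 2.0.5, featureCounts 1.5.0-p3, DESeq2 1.42.0 and GRCm38. The authors left out genes with few reads, and the deposited values, a signal that is never negative, are read counts divided by the DESeq2 size factor of the library, with 0.5 added. With the 0.5 subtracted, 100% of the values of each library were whole multiples of 1 step (within 0.001 reads), from which the reads per gene were read. The authors' own columns of fold changes, statistics and p-values were not used.

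For each of 15111 genes, log2(normalised count + 1) was compared between genotypes by limma (version 3.58.1, R 4.3.3), using a trended prior variance and no covariates, and p-values were adjusted over all genes by Benjamini-Hochberg. The pseudocount understates the change of genes with few counts. Two-sided exact permutation tests used log2 values of single genes. Levels were divided by the length of merged exons in GENCODE M21 on GRCm38, which may differ from the annotation used for counting. Promoter windows are from RefSeq. Counting error alone stands behind the floor of 3 reads, as PCR reads are not independent molecules. The fit was tested on simulated data. The 9 genes, the wider list and the markers were chosen with earlier results of these data known. All 9 genes are reported. Of the wider list, those with an unadjusted p-value under 0.05 or groups apart and the highest per kilobase in each role were named by rule; others named for their role were chosen after their values were seen. Alternatives covered the pseudocount, scaling, a filter on reads, a replicate block and each library left out. Some items are not reported here.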

Additional observations from a re-analysis of the deposited data

Results flagged for a closer look

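In 42 groups of 4 libraries (the genes of the set, *Tgfb1* and the other hyaluronan genes named by rule), 2 held a library far from the other 3, by Dixon's 95% limit on the gap over the range; about 1 group in 20 does so by chance. *Itih2* had 19.8 normalised counts in control replicate 1, against 6.65 to 8.89 in the other controls. *Itih5* had 22.4 normalised counts in TGFβ1FKO replicate 3, against 37.5 to 38.3 in the others of its group. Both genes rest on few reads, and no such library was found for the 9 genes of the set.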

How the results depend on the processing

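None of the 9 genes was called under any of the 14 alternatives run (*Has3* had 13, as it has under 10 reads on average). *Has1*, *Hyal1*, *Cemip*, *Cd44*, *Vcan* and *Tnfaip6* kept their sign throughout, and the lowest adjusted p was 0.278, for *Cd44*. The log2 fold change of *Has3*, 0.01 with all libraries, was -0.067 with a pseudocount of 5, -0.009 with upper-quartile and with total-count scaling, and -0.562 to 0.280 with a library left out. That of *Has2* was -0.068 to 0.028 and that of *Hyal2* -0.066 to 0.010 with a library left out. The number of genes called over the whole table, 13, ran from 5 to 32 with a library left out, 32 of them without control replicate 4, and was 31 with a replicate block; the cause was not tested. The labels do not say whether same-numbered libraries belong together. Such libraries had correlations of their deviations from the group means of 0.16, -0.13, 0.05 and 0.16. For other pairs these ran from -0.319 to 0.387, and not every library was closest to its own number. With 4 libraries a group, these values cannot decide whether the numbers pair the libraries. None of the 9 genes was called with the block. Both scalings were chosen after seeing the data, and moved the median of all genes to -0.02. The planned tests on recovered reads and the TMM scaling were not run. Depth limits *Has1* and *Has3*, with at most 30 and 11 reads a library.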
